A study of Mus musculus with 18 samples.

Results

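YAP1 and its partner WWTR1 (TAZ) are transcriptional co-activators, and TEAD1 is one of the DNA-binding factors through which they act. The data described here cover 10 genes of this axis in mouse mammary epithelium: Yap1, Wwtr1 and Tead1, the target genes Ccn1 (formerly Cyr61), Ccn2 (formerly Ctgf), Ankrd1, Thbs1 and Axl, and Amotl2 and Ajuba, which encode regulators of the pathway. They were taken by name from a table of read counts over 27179 gene identifiers, and all 10 were found and passed the filter on low counts. The set was chosen by counts in the mature luminal cells, where Ccn2 and Thbs1 had been seen to be higher in knockout than in wildtype mice, so every comparison that holds mature luminal libraries is given for these genes as a description, with no test. RNA was sequenced from basal cells, luminal progenitors (LP) and mature luminal (ML) cells, which were isolated by flow sorting from 14-week-old female mice. The knockout mice (KO, n = 3) carried MMTV-cre, Brca2(delta/delta) and Trp53(delta/+). MMTV drives cre mainly in mammary epithelium, the deletion of Trp53 affects 1 of the 2 alleles, and the effects of the Brca2 and Trp53 deletions cannot be told apart. The other mice were wildtype (WT, n = 3). The strain label names the transgene and both floxed alleles for all 18 libraries, WT included, and the sources used here do not say whether the WT mice carried cre or were littermates. Each mouse gave 1 library per population, which makes 6 groups of 3.

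In the Hippo pathway a cascade of kinases, MST and then LATS, phosphorylates YAP and TAZ and holds them in the cytoplasm. Without that phosphorylation they enter the nucleus, bind TEAD factors and switch on genes of matrix, adhesion and growth, of which Ccn1, Ccn2 and Ankrd1 are the customary readouts. In the mammary gland the contractile basal layer touches the basement membrane, the luminal progenitors feed the milk-producing lineage, and the mature luminal cells carry the hormone receptors.

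TEAD factors recognise the core GGAATG, whose reverse complement is CATTCC. The 250 bases upstream of the transcript start were available from RefSeq (GRCm38.p6, the assembly also called mm10) for 7 of the 10 genes, and each of the 7 held the core at least once, on either strand. Over all 27025 genes with such a window, 14.4% held it. These genes were chosen as pathway genes, several of them as known targets, so the share is a description. The matches are shown as runs of letters, and binding was not measured. The core is in capitals with 12 bases on either side, read 5′ to 3′ along the strand of the gene. Each line gives 1 gene or 1 match.
Ccn1: cgcgccaaccaaCATTCCtgagatgtttga
Ankrd1, match 1: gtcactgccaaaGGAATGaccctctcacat
Ankrd1, match 2: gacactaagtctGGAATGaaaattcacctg
Amotl2: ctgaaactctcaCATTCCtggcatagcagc
Axl: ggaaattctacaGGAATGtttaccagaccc
Ajuba, match 1: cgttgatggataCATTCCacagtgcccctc
Ajuba, match 2: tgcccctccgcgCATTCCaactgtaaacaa
Yap1: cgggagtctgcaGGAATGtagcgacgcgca
Wwtr1: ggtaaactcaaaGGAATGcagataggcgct

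The Ccn1 stretch lies on the minus strand at chr3:145650071-145650100, and its core begins 103 bases before the start. The cores of Ankrd1 (chr19:36120037-36120066 and chr19:36119950-36119979, minus strand) begin 210 and 123 bases before the start. Those of Ajuba (chr14:54577830-54577859 and chr14:54577808-54577837, minus strand) begin 186 and 164 bases before it. The remaining stretches are chr9:102717727-102717756 on the plus strand for Amotl2, and on the minus strand chr7:25788949-25788978 for Axl, chr9:8004720-8004749 for Yap1 and chr3:57576029-57576058 for Wwtr1. The Ankrd1 and Amotl2 stretches also lie in exons of transcripts of the same genes that start farther upstream in GENCODE M21, and the others overlap no annotated exon. The AP-1 motif TGANTCA was in 0 of the 7 windows, against 7.82% of all genes. Among the other pathway lists used further on, the TEAD core was in 1 of 9 windows of further target genes (Crim1), 3 of 13 of the kinase cascade, 4 of 10 of the junction and polarity genes and 4 of 6 of the other TEAD and VGLL genes. A match is a run of letters and not a measured site, and no match says only that these letters are absent from this window.

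**Figure D1:**
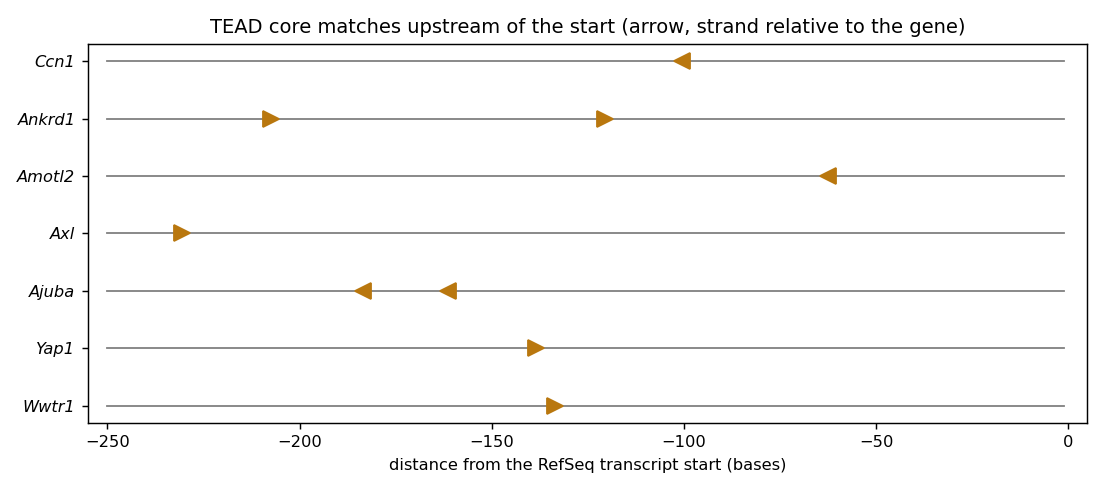
Positions of the TEAD core in the 250 bases upstream of the RefSeq transcript start of 7 genes. The horizontal axis is the distance from the start in bases, and arrows point along the strand of the match relative to the gene. Ankrd1 and Ajuba each hold 2 matches and the other 5 genes hold 1.

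Total counts ran from 8760092 to 39194603 per KO library and from 5973389 to 33492309 per WT library. In LP the genotypes did not overlap in depth, with 22416572 to 32724291 counts in KO and 9285139 to 16167003 in WT. Trp53, which encodes p53, was lower in KO in each population, with log2 fold changes of -3.60 in LP, -1.72 in basal cells and -1.58 in ML (edgeR adjusted p = 2.16e-05, 0.00592 and 0.00295). The direction is that of the genotype label. In each population the size is beyond what the loss of 1 of 2 alleles would give at a constant level per allele, most of all in LP, so the counts do not check that 1 allele remained. Brca2 counts over the whole gene did not pass the test in LP, basal cells or ML (log2 -0.49, -0.77 and 0.22), and since reads outside a deleted exon still count, they do not check that label. Defining markers matched the sorted WT populations: the summed level of 8 basal markers was 16448 to 19437 CPM in basal WT, against 33.1 to 66.9 in LP WT and 14.3 to 17.0 in ML WT. The ML KO libraries departed from this, as given beside the ML results.

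Levels are given as CPM, the count relative to the TMM-scaled library total, as mean ± SD over 3 mice. Among the regulators, Yap1 was highest in basal cells, at 506 ± 105 CPM in basal KO and 507 ± 82 in basal WT. It lay between 146 and 178 CPM in the means of the 4 luminal groups, and these 4 groups overlapped their neighbours in the order of levels. Wwtr1, which encodes TAZ, stepped down from basal cells over LP to ML, with 309 ± 28.9 CPM in basal KO and 433 ± 11.1 in basal WT, 240 ± 43.3 in LP KO and 296 ± 66.4 in LP WT, and 162 ± 45.4 in ML KO and 94.4 ± 4.65 in ML WT. Tead1 was again highest in basal cells, at 370 ± 29.0 CPM in KO and 403 ± 78.6 in WT, against group means of 71.3 to 97.7 in the luminal groups. LP KO mouse 3, at 30.3 CPM, was the lowest Tead1 library of the 18.

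The target genes split into several patterns. Thbs1, which encodes the matrix glycoprotein thrombospondin-1, and Ccn2, which encodes a secreted matricellular protein, were highest in basal cells and lowest in ML WT. The group means of Ccn2 differed 352-fold and those of Thbs1 307-fold between basal WT and ML WT. Axl, a receptor tyrosine kinase bound by GAS6, was likewise a basal gene here, at 318 ± 69.8 CPM in basal KO and 460 ± 79.7 in basal WT, against 3.85 to 19.0 in the luminal group means. Ccn1, which encodes a matricellular relative of CCN2, was highest in LP, at 1277 ± 7.82 CPM in LP KO and 1843 ± 793 in LP WT. Ankrd1, an ankyrin-repeat protein of the nucleus first described in heart muscle, was low throughout, at group means of 0 to 17.0 CPM, and was highest in LP KO.

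By the ratio of the highest to the lowest group mean, Amotl2 and Ajuba, which act on the pathway from upstream, varied least. Amotl2, an angiomotin that binds YAP and keeps it at junctions, lay between 58.6 and 106 CPM in the 6 group means, a 1.80-fold range, and every group overlapped its neighbour in the order. Ajuba, a LIM protein that restrains the LATS kinases, lay between 13.3 and 42.5 CPM, and only ML WT, the lowest group, stood clear of the group next to it. Per kilobase of counted length, which allows genes to be compared, Thbs1 was the most abundant member in basal cells, at 1784 ± 314 CPM per kb in KO and 1992 ± 542 in WT. In LP it was Ccn1, at 629 ± 3.86 CPM per kb in KO and 909 ± 391 in WT. Ccn1 was also the most abundant member per kilobase in ML, at 341 ± 171 CPM per kb in KO and 109 ± 26.8 in WT.

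**Figure D2:**
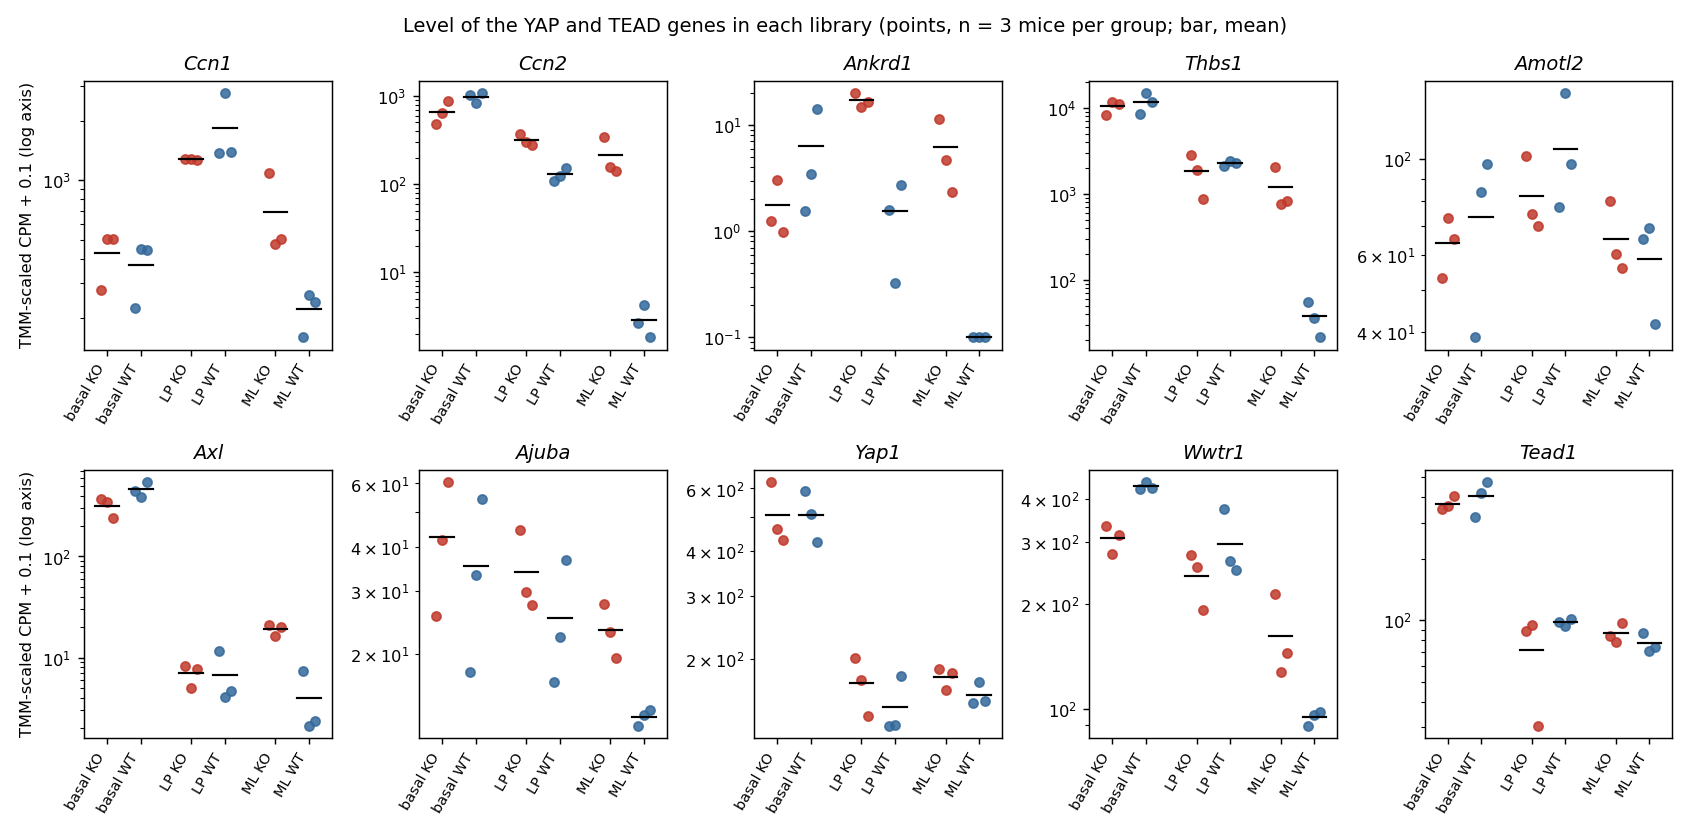
Level of each of the 10 genes in each of the 18 libraries. The vertical axis is TMM-scaled CPM plus 0.1 on a log axis, KO is red and WT is blue, points are mice (n = 3 per group) and bars are means. In ML the KO points of Ccn1, Ccn2, Ankrd1, Thbs1, Axl, Ajuba and Wwtr1 all lie above the WT points, and the Ankrd1 points of ML WT are all at 0 CPM.

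The populations were compared within a genotype over mice, since a mouse gave 1 library to each. In WT, 1 of the 10 genes was higher and 5 were lower in LP than in basal cells, where 16.9% of all 16466 genes tested were higher and 19.2% lower (edgeR quasi-likelihood test, adjusted p under 0.05). Ccn1 was the higher one, with 1380, 2759 and 1391 CPM in the 3 LP WT libraries, against 225, 450 and 442 in basal WT (log2 fold change 2.31, SE 0.39, adjusted p = 1.1e-04). No LP library reached down to a basal one. In a bulk library fewer cells of a type and less RNA per cell cannot be told apart, here and in all that follows.

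Axl fell most in LP WT against basal WT, by 6.12 on the log2 scale (SE 0.49, adjusted p = 1.76e-08), followed by Ccn2 (log2 -2.93, SE 0.36, adjusted p = 3.03e-06) and Thbs1 (log2 -2.35, SE 0.45, adjusted p = 3.95e-04). Tead1 fell by 2.04 (SE 0.31, adjusted p = 3.27e-05) and Yap1 fell by 1.79 (SE 0.22, adjusted p = 3.8e-06). Wwtr1 was 0.55 lower on the log2 scale without passing the test (adjusted p = 0.0608), and Ankrd1 was 2.02 lower (adjusted p = 0.0693). With the mouse as a block both passed, at adjusted p = 0.0347 for Wwtr1 and 0.0363 for Ankrd1. Amotl2 (log2 0.53) and Ajuba (log2 -0.47) did not pass in either fit.

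In KO the LP libraries had 2 of the 10 genes higher and 5 lower than the basal libraries, where 19.4% of all genes were higher and 21.5% lower. Ccn1 was again the higher in LP, by 1.58 on the log2 scale (SE 0.38, adjusted p = 0.00261). Ankrd1 also rose, with 19.8, 14.8 and 16.3 CPM in LP KO, against 1.14, 2.95 and 0.886 in basal KO (log2 fold change 3.30, SE 0.83, adjusted p = 0.00443). Axl, Thbs1, Tead1 and Yap1 fell by 5.53, 2.48, 2.38 and 1.56 on the log2 scale. Ccn2 fell by 1.07 (SE 0.33, adjusted p = 0.0154), a call that was lost without basal KO mouse 3 (adjusted p = 0.0802) and without LP KO mouse 3 (adjusted p = 0.058).

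The ML WT level is one side of the contrast that led to these genes, so ML WT is set against the other WT populations as a description. Ccn2 had 2.53, 4.09 and 1.71 CPM in ML WT, against 108, 125 and 152 in LP WT and 1034, 827 and 1074 in basal WT. Thbs1 had 55.6, 36.0 and 21.3 CPM in ML WT, against 2081, 2421 and 2304 in LP WT and 8417, 14709.5 and 11545 in basal WT. The 3 populations do not overlap for either gene. Of the 10 genes, 8 stood lower in every ML WT library than in every basal WT library, where 32.7% of all genes did so, and the exceptions were Ccn1 and Amotl2. Ankrd1 had 0 counts in all 3 ML WT libraries, so its level there was at least 65.0-fold lower than in basal WT and at least 23.7-fold lower than in LP WT, where the floor is set at 3 counts for the 3 libraries together.

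KO was then compared with WT within each population, the comparison for which the mice were bred. In LP, 2 of the 10 genes rose in KO and 0 fell, where 13.2% of all genes changed, with 7.55% higher and 5.68% lower. Ccn2 had 374, 301 and 274 CPM in LP KO, against 108, 125 and 152 in LP WT. All 3 KO libraries lay above all 3 WT libraries, and the log2 fold change was 1.30 (SE 0.34, edgeR adjusted p = 0.0173), a 2.47-fold higher level. Ankrd1 had 19.8, 14.8 and 16.3 CPM in LP KO, against 1.48, 0.222 and 2.64 in LP WT. The groups again did not overlap, and the log2 fold change was 3.48 (SE 0.86, adjusted p = 0.0154), from 1501 counts in LP KO and 57 in LP WT.

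Both LP calls depend on single libraries. The Ccn2 call was lost without LP KO mouse 1 (adjusted p = 0.059), LP WT mouse 1 (0.0592) or LP WT mouse 2 (0.0684), with log2 fold changes of 1.17 to 1.46 over all 14 other settings. The Ankrd1 call was lost without LP WT mouse 2 (log2 3.01, adjusted p = 0.0653) and when all libraries were thinned to the smallest total (log2 3.33, adjusted p = 0.106). Ccn2 is a gene of high level in basal cells, and 2 of the 8 basal markers (Krt14 and Mylk) were also higher in LP KO than in LP WT, while Oxtr was lower. Their summed level was 51.0 to 97.3 CPM in LP KO and 33.1 to 66.9 in LP WT. As a percentage of the basal library of the same mouse, the basal markers stood at 0.399% to 0.747% in LP KO, while Ccn2 stood at 31.6% to 77.1%. In LP WT these percentages were 0.198% to 0.344% for the markers and 10.5% to 15.1% for Ccn2. No single basal marker stood above Ccn2 in any LP library of either genotype. Of the 7 ML markers, 4 were lower in LP KO in the edgeR test and 6 had an unadjusted p under 0.05 (median log2 -1.45), with sums of 154 to 352 CPM in LP KO and 565 to 787 in LP WT. Of the 6 immune markers 2 passed the filter, and these 2 had an unadjusted p under 0.05. Csf1r passed the edgeR test as higher in LP KO. The immune sums were 5.92, 2.93 and 34.6 CPM in LP KO mice 1, 2 and 3, and 1.11 to 2.45 in LP WT. Of the 8 endothelial and pericyte markers Cspg4 was higher, with sums of 9.91 to 15.7 CPM in LP KO and 8.45 to 19.5 in LP WT. Of the 6 fibroblast markers 0 passed the edgeR test and 1 had an unadjusted p under 0.05, while DESeq2 called Pdgfra lower and limma voom called 0; their sums were 12.7 to 92.3 CPM in LP KO and 31.6 to 50.5 in LP WT. The part of these markers in the LP results was not tested.

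Of the other 8 members in LP, 0 passed the edgeR test, 0 had an unadjusted p under 0.05 and DESeq2 and limma voom called 0, and their log2 fold changes ran from -0.53 for Ccn1 to 0.42 for Ajuba. Ccn1 had 1274, 1285 and 1270.5 CPM in LP KO, against 1380, 2759 and 1391 in LP WT. The KO libraries lay below the WT libraries without overlap, and WT mouse 2 stood far above the rest, but the difference did not pass (SE 0.37, adjusted p = 0.356). Ccn1 is also an immediate early gene in many cells. In the edgeR test 4 of 10 such genes fell in LP KO, where 5.68% of all genes fell. All 10 had an unadjusted p under 0.05 (median log2 -1.015, against 0.02 over all genes), and DESeq2 called 6 lower and limma voom 4. The summed level of these genes was 9198 to 11998 CPM in LP KO and 18039 to 45858 in LP WT. Their part in the Ccn1 values was not tested. Thbs1 had 2797, 1900.3 and 870 CPM in LP KO, against 2081, 2421 and 2304 in LP WT, so that the KO libraries spread across the whole WT range (log2 -0.29, adjusted p = 0.689).

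In basal cells 0 of the 10 genes passed the test, where 2.54% of all genes did (edgeR; 2 of the 10 had an unadjusted p under 0.05, Ankrd1 at 0.035 and Wwtr1 at 0.0398). DESeq2 and limma voom called 0 of the 10 as well. Of the markers of the other populations, edgeR called Kit and Prom1 higher in basal KO. DESeq2 called 3 of 5 LP markers and 4 of 7 ML markers higher, and limma voom called Kit. The list medians were log2 1.89 and 1.38, with LP marker sums of 49.4 to 142 CPM in basal KO and 33.6 to 40.4 in basal WT, and ML marker sums of 65.8 to 105 in basal KO and 32.1 to 56.4 in basal WT. Their part in the basal results was not tested. Wwtr1 had 334, 277 and 315 CPM in basal KO, against 425, 446 and 429 in basal WT, so the groups did not overlap (log2 -0.49, SE 0.22, adjusted p = 0.436). Axl did not overlap either, with 369, 347 and 239 CPM in basal KO, against 447, 388 and 546 in basal WT (log2 -0.53, SE 0.39, adjusted p = 0.782). Groups without overlap made up 17.6% of all genes in this comparison. Ccn2 had 485, 641 and 869 CPM in basal KO, against 1034, 827 and 1074 in basal WT (log2 -0.56, SE 0.33, adjusted p = 0.667). KO mouse 3 lay within the WT range and the other KO libraries below it. Ankrd1 had 1.14, 2.95 and 0.886 CPM in basal KO, against 1.46, 3.37 and 13.9 in basal WT, a spread that rests on WT mouse 3 (log2 -1.84, SE 0.80, adjusted p = 0.409).

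The difference of the KO effect between LP and basal cells was tested directly. Of the 10 genes, 1 differed, where 1.02% of all genes did. It was Ankrd1, whose KO effect in LP exceeded that in basal cells by 5.32 on the log2 scale (SE 1.17, adjusted p = 0.0415; 0.00783 with the mouse as a block). Of 20 other settings, 12 lost this call, with adjusted p from 2.02e-04 to 0.118 over all of them. They were limma voom (0.0522), thinned libraries (0.118) and the fits without any 1 of 10 of the 12 libraries (log2 3.998 to 6.07, adjusted p = 0.0503 to 0.115). Without basal WT mouse 1 or LP WT mouse 3 the call stood. For Ccn2 the difference was 1.86 (SE 0.47), just outside the threshold (adjusted p = 0.0683; 0.0528 with the mouse as a block), and 4 of 20 settings put it inside, among them DESeq2 (0.0137) and limma voom (0.0447). With the block, 437 genes in all differed, against 168 without it.

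**Figure D3:**
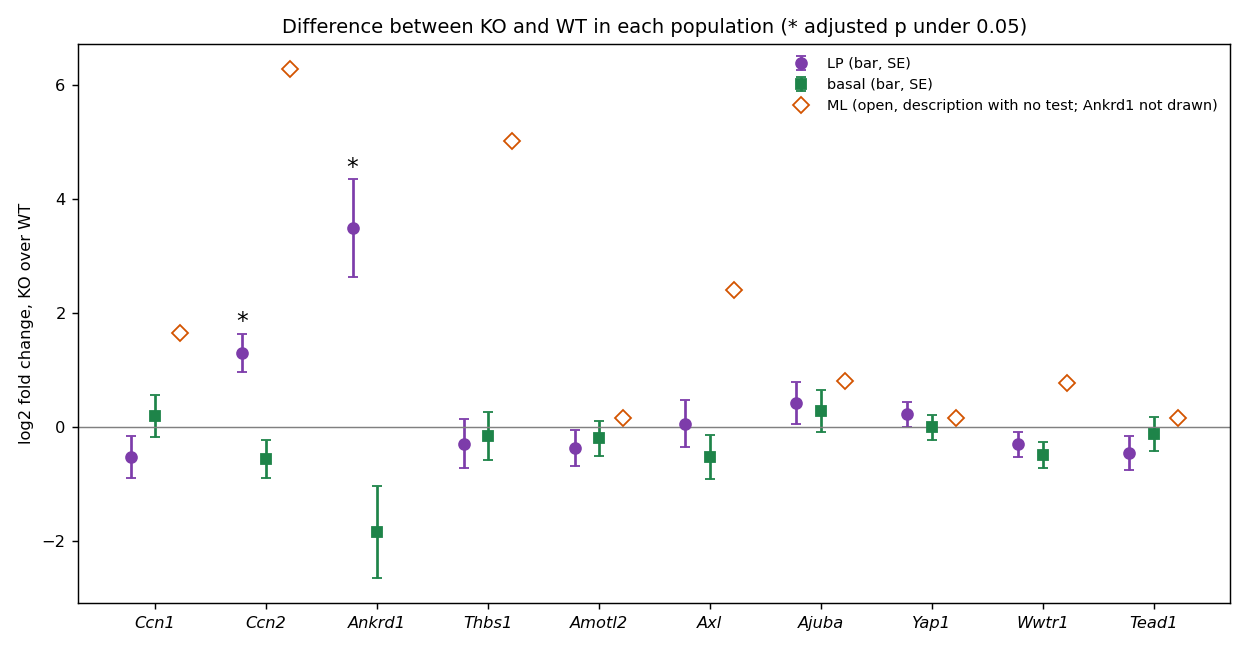
Log2 fold change of KO over WT for each of the 10 genes in LP (circles), basal cells (squares) and ML (open diamonds, a description with no test). Bars are standard errors of the edgeR fit and an asterisk marks an adjusted p under 0.05. Ankrd1 and Ccn2 in LP carry the asterisk, no basal value does, and Ankrd1 in ML is left out because ML WT had 0 counts.

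In ML cells all 10 genes had a positive fitted log2 fold change, and in 7 of them every KO library lay above every WT library. Over all genes 21.6% lay above WT without overlap in ML and 15.1% passed the test, and since this contrast led to the set, nothing is read from these counts. The median log2 fold change of the 10 genes was 1.23, and for the same reason nothing is read from it. Ccn2 had 341, 154 and 140 CPM in ML KO, against 2.53, 4.09 and 1.71 in ML WT. Even the lowest KO library stood far above the highest WT library, and the means were 76.3-fold apart. Thbs1 had 2027, 764 and 827 CPM in ML KO, against 55.6, 36.0 and 21.3 in ML WT, with means 32.0-fold apart.

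Ankrd1 was absent from the ML WT counts and present in each ML KO library, at 11.4, 4.56 and 2.25 CPM, or 337 counts in all. With ML WT set at that floor, the ML KO level was at least 65.4-fold higher. Ccn1 had 1092, 477 and 504 CPM in ML KO, against 160, 262 and 242 in ML WT, and the groups did not overlap (log2 1.64). Axl had 20.7, 16.2 and 19.9 CPM in ML KO, against 7.29, 2.00 and 2.27 in ML WT (log2 2.41). The KO libraries lay close together, while WT mouse 1 stood above the other WT libraries.

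The co-activator Wwtr1 had 213, 127 and 144 CPM in ML KO, against 89.2, 96.1 and 98.0 in ML WT (log2 0.77), and Ajuba had 27.6, 22.9 and 19.5 CPM in ML KO, against 12.5, 13.4 and 13.9 in ML WT (log2 0.81). Neither gene overlapped between the genotypes. Yap1, Tead1 and Amotl2 overlapped, with log2 fold changes of 0.16, 0.17 and 0.16. Amotl2 had a negative value without ML KO mouse 1 or without ML WT mouse 3 (log2 -0.0037 and -0.04).

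The libraries labelled ML KO also held markers of the other sorted populations. Of the 8 basal markers, 6 were higher in ML KO than in ML WT and 0 lower, with a summed level of 483 to 545 CPM in ML KO, against 14.3 to 17.0 in ML WT. All 5 LP markers were higher, with sums of 287 to 850 CPM in ML KO, against 83.1 to 93.5 in ML WT. Of the 7 ML markers, 0 were higher and 3 lower in the edgeR test, and 6 had an unadjusted p under 0.05 (median log2 -1.52). DESeq2 called 5 lower and limma voom 6. The sums of the ML markers were 870 to 3911 CPM in ML KO, against 6594 to 7956 in ML WT. No marker of these lists was at 0 counts in either group. Of 8 endothelial and pericyte markers Tek and Cspg4 were higher, with sums of 9.25 to 13.6 CPM in ML KO, against 7.34 to 10.1 in ML WT. Of 6 fibroblast markers 0 passed or had an unadjusted p under 0.05 in edgeR, and DESeq2 and limma voom called 0; their sums were 79.6 to 373 CPM in ML KO, against 48.8 to 271 in ML WT. ML KO mouse 1 had the highest LP sum and the lowest ML sum of the 3 ML KO libraries. It was also the highest ML KO library for Ccn1, Ccn2, Ankrd1 and Thbs1. Without it the means of KO and WT were 52.9-fold apart for Ccn2, 21.1-fold for Thbs1 and 2.22-fold for Ccn1.

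Set against the basal library of the same mouse, the basal markers of ML KO stood at 3.26% to 4.27%. Axl stood at 4.67% to 8.35%, Thbs1 at 6.55% to 24.5% and Ccn2 at 16.1% to 70.3%. In WT mice the same percentages were 0.0872% to 0.0979% for the basal markers, 0.416% to 1.63% for Axl, 0.185% to 0.661% for Thbs1 and 0.159% to 0.494% for Ccn2. All 3 genes lay above the percentage of the summed markers in each ML library of both genotypes, but single markers varied widely. In ML KO they ran from 0.293% to 0.436% for Cnn1 up to 7.90% to 17.6% for Trp63, and Krt5 stood at 8.64% to 10.4%. Of the 8 basal markers, 2, 3 and 2 stood above Axl in the 3 ML KO libraries, 0, 3 and 3 above Thbs1, and 0 above Ccn2 in any of them. In the ML WT libraries 1 or 2 of the 8 stood above Ccn2. Set against the LP library of the same mouse, the LP markers of ML KO stood at 11.5% to 44.2%. Ankrd1 stood at 13.8% to 57.6%, Ccn1 at 37.1% to 85.8%, Thbs1 at 40.2% to 95.1% and Ccn2 at 51.0% to 91.2%. Axl stood at 254% to 334% of the LP library in ML KO. Of the 5 LP markers, 0 stood above Ccn2, Thbs1 or Axl in any ML KO library. Above Ankrd1 stood 1, 0 and 3 of them, and above Ccn1 0, 0 and 1 (Kit). In WT mice the LP markers stood at 2.11% to 2.76%, Ccn1 at 9.50% to 17.4%, Thbs1 at 0.926% to 2.67% and Ccn2 at 1.13% to 3.27%. The part of basal and LP markers in the ML differences was not tested.

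**Figure D4:**
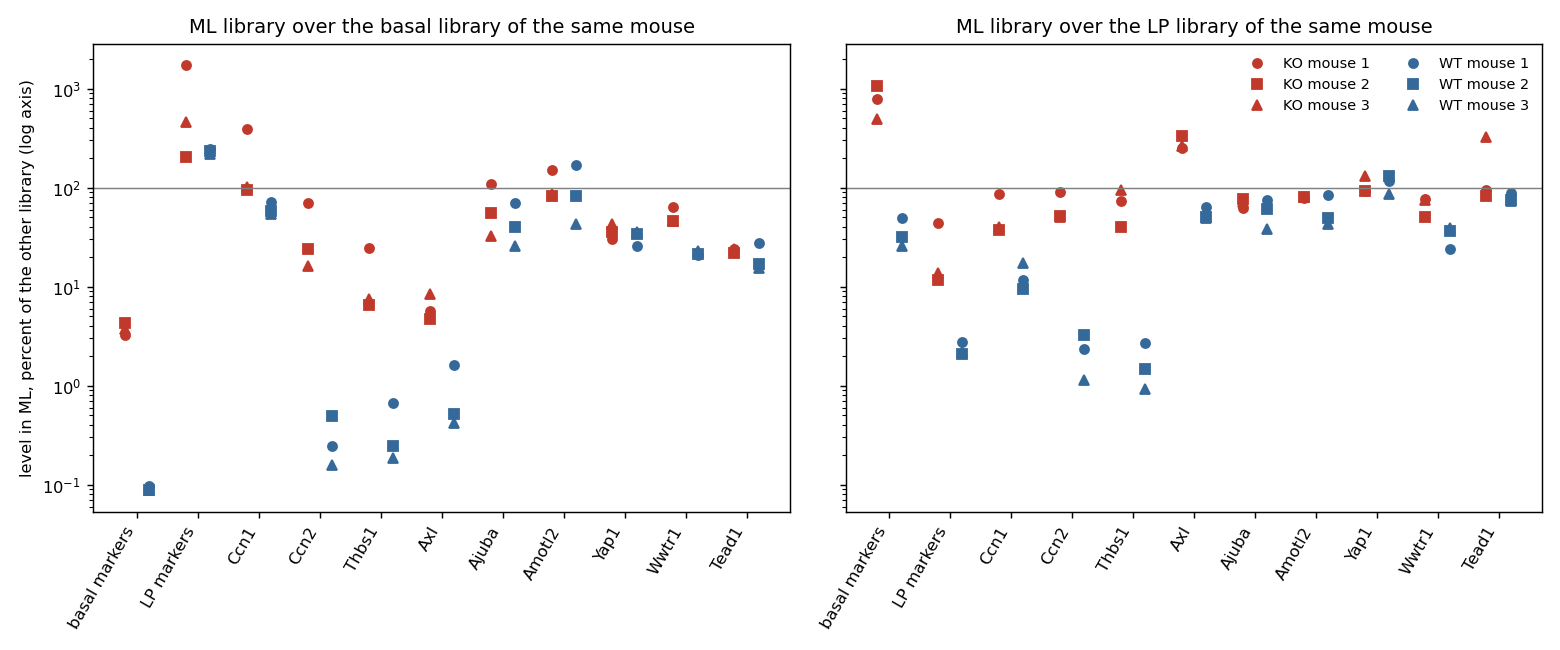
Level in the ML library as a percentage of the basal library (left) and of the LP library (right) of the same mouse, on a log axis, for the summed markers and 9 of the genes. Each point is 1 mouse, red for KO and blue for WT, and the line marks equal levels. Basal markers in KO mice stand at 3.26% to 4.27% of the basal library, and Ccn2 in the same mice at 16.1% to 70.3%.

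Further genes of the pathway were followed in 4 lists: 15 other target genes, 15 genes of the kinase cascade, 15 junction and polarity genes and 7 other TEAD and VGLL genes, of which 5 passed the filter. In basal cells 0 genes of these lists passed the edgeR test, 3 had an unadjusted p under 0.05 (1 target, 1 junction or polarity gene and 1 TEAD or VGLL gene), and DESeq2 and limma voom called 0. In LP KO 1 of the 15 targets rose and 1 fell in the edgeR test, where 7.55% of all genes rose and 5.68% fell, so the share called is close to that of all genes. DESeq2 also called Rbms3 lower. Nt5e, which encodes the surface enzyme CD73, had 35.2, 32.4 and 15.0 CPM in LP KO, against 3.08, 1.11 and 0.613 in LP WT (log2 fold change 4.20, SE 0.52, adjusted p = 1.39e-04). The lowest KO library stood well above the highest WT library. Arhgef17, which encodes a guanine nucleotide exchange factor, fell by 1.46 (SE 0.25, adjusted p = 0.00128). The median over the targets was -0.15 in LP, against 0.02 over all genes.

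In the kinase cascade, 4 of 15 genes fell in LP KO in the edgeR test, where 5.68% of all genes fell, and the other 11 did not pass. They were Taok1 (log2 -1.49, adjusted p = 0.0122) and Taok2 (log2 -0.78, adjusted p = 0.00819), kinases that act on MST, Frmd6 (log2 -1.19, adjusted p = 0.0275) and Wwc1, also known as KIBRA (log2 -0.83, adjusted p = 0.047), scaffolds upstream of LATS. All 4 calls were lost when only the LP libraries entered the fit (adjusted p = 0.0831 to 0.136). Leaving out a library also ended 3 of them. Taok1 was lost without LP WT mouse 1 (adjusted p = 0.0578). Frmd6 was lost without LP KO mouse 2 (0.0523) or 3 (0.112) and without LP WT mouse 1 (0.0769) or 2 (0.0808). Wwc1 was lost without LP KO mouse 1 (0.134) or 3 (0.146), without LP WT mouse 2 (0.228) or 3 (0.0883), with no filter on low counts, with limma voom and in thinned libraries. The median of the 15 genes was -0.56 in LP, against 0.02 over all genes, and was not recomputed with a library left out. Some of these genes spread widely. Taok1 ran from 43.2 to 157 CPM in LP KO and 212 to 475 in LP WT, and Mob1a from 16.1 to 78.7 and 76.1 to 143. Over all genes, LP KO mouse 3 differed more from mice 1 and 2 (chi-square per degree of freedom 183 and 204) than those did from each other (48.6). DESeq2 called 6 lower and limma voom 5, and both added Lats1 and Mob1a. Lats1 and Lats2, which phosphorylate YAP and are named after their values were seen, did not pass in edgeR (log2 -0.92 and -0.54, adjusted p = 0.0522 and 0.335). Among the junction and polarity genes Mpp5, the scaffold PALS1 of the Crumbs complex, fell by 1.33 (adjusted p = 0.0184) and the other 14 did not pass in edgeR. DESeq2 also called Fat1 and Patj lower, and limma voom Fat1. The Mpp5 call was lost without LP KO mouse 3 (adjusted p = 0.0829), without LP WT mouse 1 (0.102) and with only the LP libraries in the fit (0.096). Of the 5 TEAD and VGLL genes, 0 passed the edgeR test in LP, 1 had an unadjusted p under 0.05, and DESeq2 and limma voom called 0.

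In ML KO 5 of the 15 targets rose and 3 fell, where 12.5% of all genes rose and 2.62% fell, with a median log2 fold change of 0.01 for the targets. Igfbp3, a binding protein of insulin-like growth factors, had 78.3, 50.7 and 65.6 CPM in ML KO, against 0.475, 1.08 and 1.24 in ML WT (log2 5.99, SE 0.60, adjusted p = 1.66e-06). Its level in basal cells was 1395 to 3403 CPM in KO and 1110.0 to 2910 in WT. Tgfb2, a ligand of the TGF-beta family, had 41.1, 8.64 and 15.5 CPM in ML KO, against 1.90, 1.08 and 1.37 in ML WT (log2 3.93, SE 0.52, adjusted p = 2.89e-05). Asap1, which acts on ARF GTPases, also rose (log2 1.85, SE 0.30, adjusted p = 2.23e-04), while the kinase gene Nuak2 fell by 1.55 (SE 0.24, adjusted p = 1.74e-04). Fjx1 and Nt5e were the other 2 that rose, and Gadd45a and Arhgef17 the other 2 that fell, named here after their values were seen.

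Of the 15 kinase cascade genes, 2 rose in ML KO in the edgeR test, where 12.5% of all genes rose. The share called is thus close to that of all genes. They were Frmd6 (log2 1.48, adjusted p = 0.00618) and Map4k4 (log2 0.97, adjusted p = 0.0176), a kinase that can activate LATS. The other 13 did not pass in edgeR, while DESeq2 also called Wwc1 lower. The Map4k4 call was lost without ML KO mouse 1 (adjusted p = 0.104), ML WT mouse 1 (0.0782) or ML WT mouse 3 (0.0626). Frmd6 thus rose in ML and fell in LP. Its level was 69.7, 44.8 and 34.8 CPM in ML KO, against 11.7, 22.5 and 18.9 in ML WT, and 86.1, 63.5 and 33.2 CPM in LP KO, against 162, 144 and 111 in LP WT. The difference between the 2 effects was not tested. Of the 15 junction and polarity genes 4 rose in ML KO and 11 did not pass in edgeR, where 12.5% of all genes rose. Those that rose were the atypical cadherins Fat4 (log2 4.74, adjusted p = 1.56e-05) and its ligand Dchs1 (log2 4.35, adjusted p = 8.46e-05), the LIM protein gene Wtip (log2 2.84, adjusted p = 0.00201) and Amot (log2 1.03, adjusted p = 0.0497), a relative of Amotl2. The Wtip call was lost with only the ML libraries in the fit (adjusted p = 0.0614). The Amot call was lost in 8 of 14 settings, among them the fits without ML KO mouse 1 (0.139), 2 (0.0843) or 3 (0.0756) and without ML WT mouse 1 (0.181) or 2 (0.132). Vgll3, a cofactor that binds TEAD factors, rose as well (log2 3.38, SE 0.81, adjusted p = 0.00747), from 72 counts in ML KO and 4 in ML WT, a call that was lost without ML WT mouse 3 (adjusted p = 0.0531). All of Igfbp3, Fat4, Dchs1 and Vgll3 were far higher in basal libraries than in ML libraries of either genotype. The other genes that rose in edgeR were Asap1, Fjx1, Nt5e, Tgfb2, Frmd6, Map4k4, Wtip and Amot. Their group means were also higher in both basal groups than in both ML groups. In KO the means in basal cells and ML were 52.9 and 11.4 CPM for Asap1, and 35.8 and 21.7 for Tgfb2. Tgfb2 was highest in LP, at 57.0 CPM in KO and 105 in WT. Both LP means also lay above both ML means for Asap1, Tgfb2, Frmd6, Map4k4, Wtip and Amot. They did not for Fjx1, Nt5e, Igfbp3, Fat4, Dchs1 and Vgll3. The basal and LP marker sums given above stand beside all of these results too, and the part of the markers was not tested.

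**Figure D5:**
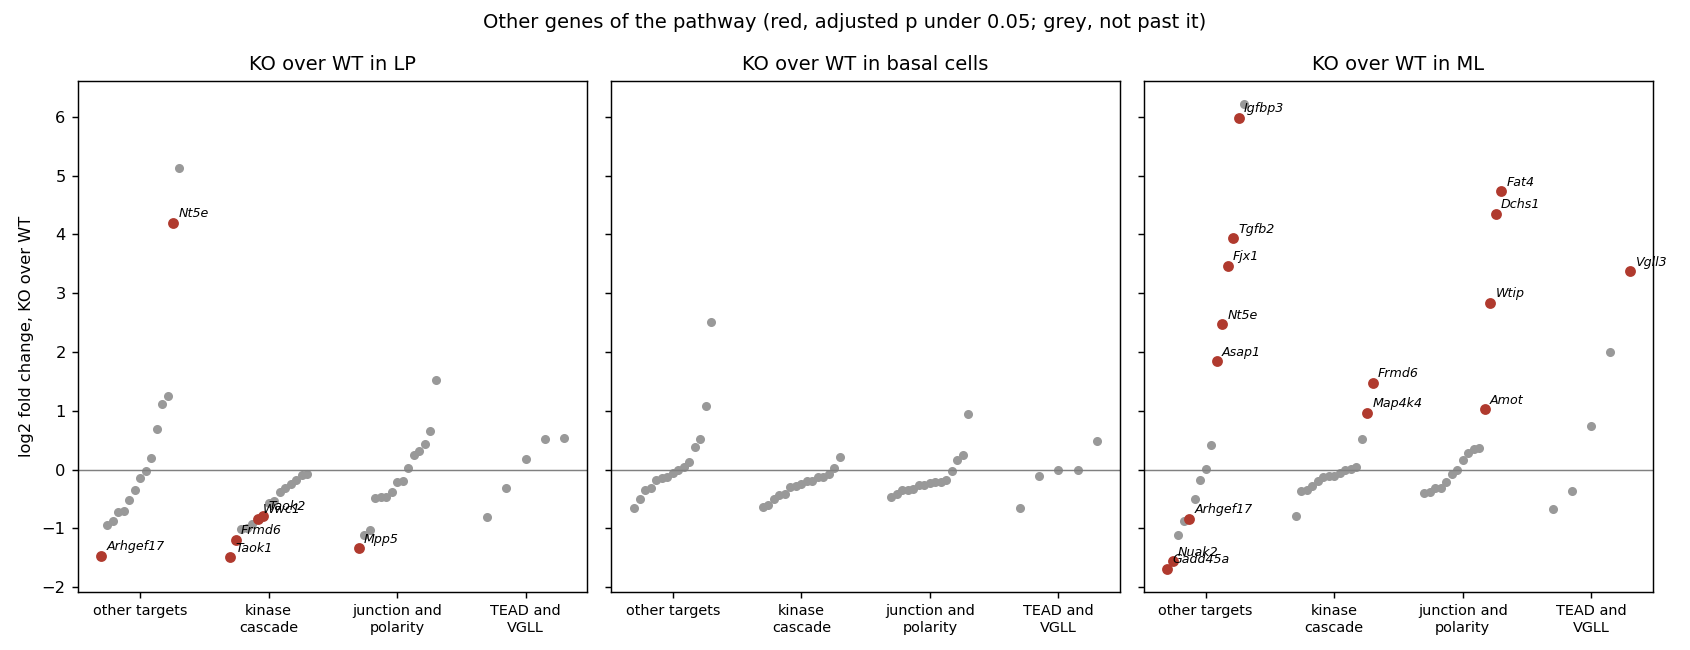
Log2 fold change of KO over WT for the other genes of the pathway in LP, basal cells and ML, by list. Each point is 1 gene, red where the edgeR adjusted p is under 0.05 and grey otherwise. No gene passes in basal cells, 6 of the 7 that pass in LP are lower in KO, and 12 of the 15 that pass in ML are higher. Over all genes tested, 2.54% pass in basal cells. In LP 7.55% of all genes are higher and 5.68% lower, and in ML 12.5% are higher and 2.62% lower, so most genes that pass in ML are higher.

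The genes whose levels ran most like those of Ccn2 and Thbs1 over the 18 libraries were sought among 12939 genes with a mean of at least 2 CPM, by the root mean square difference of log2 levels centred on their means. For Ccn2 they were Sema6a (0.51 log2 units), a semaphorin, Palmd (0.70), Col9a3 (0.76), Thbs1 itself (0.79) and an identifier with no symbol. Sema6a stood at 20.8 ± 2.23 CPM in ML KO and 0.232 ± 0.0956 in ML WT, at 23.9 ± 4.09 in LP KO and 13.5 ± 1.70 in LP WT, and at 62.4 ± 16.0 in basal KO and 52.7 ± 5.93 in basal WT. For Thbs1 they were Ttc28 (0.70), the transcription factor gene Sox8 (0.71), the epidermal growth factor receptor gene Egfr (0.72), Mamld1 (0.73) and Akap2 (0.73). Egfr stood at 47.4 ± 9.50 CPM in ML KO and 1.87 ± 1.02 in ML WT, and at 229 ± 40.1 in basal KO and 254 ± 66.7 in basal WT. These are likenesses of level over libraries that share mice and populations, and no more.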

How the data were processed

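RNA-seq of 18 libraries (6 mice, 3 populations each) was used. The deposited values are raw counts of reads per gene, which the authors made with featureCounts on mm10, per the submitters' processing notes; no source used here gives versions, the aligner or how strand was treated, and the TruSeq RNA v2 kit named in the labels' protocols does not mark strand. None of the 10 genes overlaps another RefSeq gene among the 27179 counted identifiers. Overlap with other annotated genes was not looked at. Of 27179 gene identifiers, 25275 matched a symbol, 18 more were matched through GENCODE alone and 1886, with 1.56% of the counts, had none. The 18 single-library files held the same values as the columns of the joint table. Replicates were no duplicates (chi-square per degree of freedom 22.6 to 204). The labels give separate mice within each group. The main fit pools the spread between mice over all 6 groups and takes the 3 libraries of a mouse as independent. Its p-values measure that pooled spread, and not only that of the groups compared.

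Counts were tested with edgeR 4.0.16 (R 4.3.3) by quasi-likelihood over all 18 libraries in 6 groups, after filterByExpr (16466 genes) and TMM scaling (factors 0.832 to 1.19, biological coefficient of variation 33.3%). Benjamini-Hochberg adjustment ran over all genes of a contrast with a threshold of 0.05, and the standard error is the fold change divided by the root of F. The test was checked on simulated data. Group means are arithmetic means of CPM, and CPM here is relative to the TMM-scaled library. Alternatives were DESeq2 1.42.0, limma 3.58.1 voom, RLE scaling, no filter, only the groups compared, thinning to the smallest total, a replicate block and leaving out each library. Likeness of levels used log2 CPM with a prior count of 2. Depth was 5973389 to 39194603 counts per library.

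Libraries of 1 number and genotype come from 1 mouse, per the labels. Residuals about the group means correlated with r = 0.0949 to 0.334 between populations of a mouse, above 0.1 in 17 of 18 pairs.

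The members, the lists and the tests were chosen with earlier results of these data known. Named are all 10 members, Brca2, Trp53, up to 4 genes of lowest p among those past the threshold per further list and KO contrast, and the 5 genes most like Ccn2 and Thbs1. The promoter windows of 7 genes come from RefSeq (GRCm38.p6), matched by the gene identifier that was found from the symbol.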

Additional observations from a re-analysis of the deposited data

Results flagged for a closer look

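The KO effect on Ankrd1 was larger in LP than in basal cells by 5.32 on the log2 scale, by a test of the difference itself (SE 1.17, edgeR adjusted p = 0.0415). Its values lay above WT in every LP KO library and overlapped WT in basal cells. This call was lost in 12 of 20 other settings, with adjusted p up to 0.118. Nt5e differed in the same direction, by 4.38 (SE 0.67, adjusted p = 0.00395), and its call held in all 20 other settings (log2 3.92 to 5.24, adjusted p = 1.77e-07 to 0.0156).

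The other genes here, Ccn1, Axl and Wwtr1, are listed for values without overlap. Every KO library lay on one side of WT in one population and on the other side in another. Over all genes, 21.6% lay above WT without overlap in ML, and 17.6% did not overlap in either direction in basal cells. The share of all genes with such opposite sides was not computed. Ccn1 in LP and Axl and Wwtr1 in basal cells did not pass the edgeR test (adjusted p = 0.356, 0.782 and 0.436). Ccn1 was above WT in all ML KO libraries and below it in all LP KO libraries, and the effects differed by 2.17 on the log2 scale. Axl was above WT in all ML KO libraries and below it in all basal KO libraries, with a difference of 2.94. Wwtr1 did the same, with a difference of 1.26. These differences hold ML libraries and were not tested.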

How the results depend on the processing

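Against 2178 genes called in LP, 688 were called with only the LP libraries in the fit, 1324 in thinned libraries and 830 to 2409 on leaving out 1 library (830 without LP WT mouse 2, 1193 and 1266 without LP KO mouse 3 and mouse 1, 1450 without LP WT mouse 1). Against 418 in basal cells, DESeq2 called 694, thinning left 223, and leaving out 1 library gave 222 to 416, with each library but basal KO mouse 1 moving the count by over 1.5 times. Against 2491 in ML, leaving out 1 library gave 1654 to 2297, the lowest without ML KO mouse 1. Against 168 for the difference between LP and basal cells, DESeq2 called 559, limma voom 85, thinned libraries 96, the mouse as a replicate block 437, and leaving out 1 library gave 73 to 224, under 1.5 times from 168 only without basal KO mouse 1, LP KO mouse 2 or LP WT mouse 1 or 3. The replicate number as a block gave 2859 in LP, 453 in basal cells and 3057 in ML, with no member's call changed; KO and WT mice of 1 number share only that number (r = -0.0977 to 0.258). The mouse block changed the calls of Ankrd1 and Wwtr1 in WT LP against basal cells and no other member's. Robust estimation, added after seeing the data, gave 2186 in LP, 418 in basal cells, 2484 in ML and 173 for the difference. Fitted log2 values of Ankrd1 in ML, which are no bound, were 9.91 in edgeR, 8.66 in DESeq2, 6.71 in limma voom and 7.90 in thinned libraries.

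No member past the threshold changed sign under the alternatives run. Yap1 in basal cells was 0.0135 with RLE scaling and 0.0134 with DESeq2, and Axl in LP was -0.0465 in thinned libraries. On leaving out 1 library, log2 values that changed sign ran, for KO against WT in basal cells, from -0.0589 to 0.73 for Ajuba, -0.50 to 0.0567 for Amotl2, -0.0630 to 0.43 for Ccn1, -0.27 to 0.00517 for Tead1, -0.34 to 0.0512 for Thbs1 and -0.19 to 0.12 for Yap1. In LP they ran from -0.20 to 0.67 for Axl and -0.71 to 0.0519 for Thbs1, and in ML from -0.0368 to 0.30 for Amotl2 and -0.11 to 0.81 for Brca2. For the difference between LP and basal cells they ran from -0.31 to 0.53 for Ajuba, -0.42 to 0.14 for Amotl2, -0.59 to 0.0368 for Tead1 and -0.55 to 0.21 for Thbs1, and for KO LP against KO basal cells from -0.59 to 0.00964 for Ajuba. The cause of these changes was not tested. Over 1534 values of single genes and settings, 803 and 621 were kept without and with a library left out. Kept means the same direction and the same side of the threshold. For the members in KO against WT in ML it means the same direction and a shift smaller than the spread between mice. Members in WT ML against WT basal cells and WT LP are counted by side of the threshold. Those comparisons are otherwise given as a description. Depth limits Ankrd1 and Vgll3, whose counts were low.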

Other observations

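The other TEAD genes had levels of their own by population. Tead2 was highest in ML WT, with 92.0 ± 31.4 CPM in ML KO and 147 ± 9.57 in ML WT, 47.7 ± 10.2 in LP KO and 83.3 ± 32.4 in LP WT, and 17.4 ± 6.46 in basal KO and 17.4 ± 5.20 in basal WT (SD, n = 3 each). Tead3 lay between 36.2 and 91.9 CPM in the 6 group means, highest in basal WT. Tead4 stood at 21.1 ± 13.1 CPM in LP KO and 14.8 ± 19.3 in LP WT, and at 9.84 ± 4.92 in ML KO and 2.39 ± 0.827 in ML WT, with 1.35 ± 0.416 in basal KO and 0.942 ± 0.443 in basal WT. Vgll1 and Vgll2 had at most 8 and 2 counts in any group of 3 libraries.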
